A study of Mus musculus with 5 samples.

Results

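Mouse cells carry several genes that encode a second version of a ribosomal protein, and 5 such paralogs were followed here beside their common partners: Rpl39l with Rpl39, Rpl10l with Rpl10, Rpl3l with Rpl3, Rpl22l1 with Rpl22 and Rps27l with Rps27. These 10 genes were 10 of the 23997 rows of the expression matrix, and each was found by its exact gene name. They were chosen by values of these same libraries, since the rise of Rpl39l in the mutant cortex was already known when the set was drawn up. The contrast between genotypes is therefore given for them as a description without a test. The values were FPKM, in which the fragments of a gene are divided by its length and by the size of its library. Multiply mapped reads had been removed, so levels can be set side by side only between genes whose reads map to a single place.

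The study deleted Uhrf1, which recruits the maintenance DNA methyltransferase Dnmt1 to newly replicated DNA, in the developing cerebral cortex. RNA-seq was done on the full cortex of C57BL/6 mice at embryonic day 16 (E16), in 3 control libraries labelled Uhrf1 +/- (MG15, MG16 and MG17) and 2 conditional knockout (cKO) libraries labelled Uhrf1 -/- (MG18 and MG19). By the study's methods both genotypes carried Emx1-Cre, so the controls had also lost 1 floxed allele, and no library was free of Cre. Emx1-Cre acts in the dorsal telencephalon, so cells that reached the dissected cortex from elsewhere, such as interneurons, vessels and blood, kept Uhrf1. The labels do not say whether each library was 1 animal. The SDs below measure the spread between these libraries. The SEs are moderated by limma, which draws the variance of each gene towards that of genes of like level.

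Ribosomal proteins are among the most abundant products of any growing cell, and most are made from a single active gene beside many silent processed copies. Rpl39l and Rpl10l are autosomal copies of X-linked genes and are best known from male germ cells, where the X chromosome is silenced during meiosis. Rpl3l is known from skeletal muscle and heart, where it takes the place of Rpl3. Rpl22l1 is made in many tissues and is held down by the Rpl22 protein, and Rps27l is widely made and responds to p53. Within the ribosome, the Rpl39 protein lines the tunnel through which new polypeptides leave. Rpl10 joins the large subunit late in its assembly, Rpl3 lies close to the catalytic centre, Rpl22 sits on the surface, and Rps27 is a zinc-binding protein of the small subunit.

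The coding sequences show how far the paralogs can be told apart by sequencing. Rpl39l and Rpl39 are printed because Rpl39l had the largest difference between the genotypes among the genes followed here. Both coding sequences are 156 bases long, and the capitals mark the bases that differ between them (GENCODE M21 transcripts, GRCm38).
Rpl39l: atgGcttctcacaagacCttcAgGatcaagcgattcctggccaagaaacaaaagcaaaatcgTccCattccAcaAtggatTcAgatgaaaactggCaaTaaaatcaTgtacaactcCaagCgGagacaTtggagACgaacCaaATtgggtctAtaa
Rpl39: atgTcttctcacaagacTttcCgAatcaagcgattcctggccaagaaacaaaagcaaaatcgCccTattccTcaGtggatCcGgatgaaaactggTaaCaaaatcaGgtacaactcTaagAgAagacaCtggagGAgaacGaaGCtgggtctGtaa
They were identical at 85.3% of the positions. Of the 21 codons that differed, 18 encoded the same residue and 3 changed it. Rps27l and Rps27 are printed as the pair in which the paralog had the higher listed FPKM, with 255 bases each and the differing bases in capitals.
Rps27l: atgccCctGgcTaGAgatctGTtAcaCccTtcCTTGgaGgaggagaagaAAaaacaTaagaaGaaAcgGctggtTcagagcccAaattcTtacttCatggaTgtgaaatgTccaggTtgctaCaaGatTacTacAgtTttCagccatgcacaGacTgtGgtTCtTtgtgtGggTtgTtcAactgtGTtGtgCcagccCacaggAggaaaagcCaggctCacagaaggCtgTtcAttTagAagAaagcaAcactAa
Rps27: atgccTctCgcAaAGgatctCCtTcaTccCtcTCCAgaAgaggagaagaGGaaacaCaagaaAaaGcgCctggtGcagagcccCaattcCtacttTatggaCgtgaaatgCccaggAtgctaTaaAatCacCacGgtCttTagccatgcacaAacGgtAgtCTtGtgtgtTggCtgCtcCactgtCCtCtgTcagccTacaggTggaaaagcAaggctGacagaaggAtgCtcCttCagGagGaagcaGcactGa
This pair was identical at 76.1% of the positions, and 3 of its 54 differing codons changed the residue. Identity was 84.8% for Rpl10l and Rpl10, 73.2% for Rpl3l and Rpl3 and 66.9% for Rpl22l1 and Rpl22. No stretch of 100 bases, the length of the sequenced reads, was shared within any of the 5 pairs of mRNAs, so an exact full-length read of one member could not come from the other.

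The genes lie apart in the genome (GRCm38, GENCODE M21). Rpl39l is on chr16:10170226-10174911 (+ strand, 3 exons) and Rpl39 on chrX:37082520-37085402 (- strand, 3 exons). Rpl10l has a single exon on chr12:66283379-66284401 (- strand), and Rpl10 has 7 exons on chrX:74270812-74273135 (+ strand). Rpl3l is on chr17:24727820-24736143 (+ strand) and Rpl3 on chr15:80077791-80091868 (- strand), with 10 exons each. Rpl22l1 lies on chr3:28805436-28807424 (+ strand), Rpl22 on chr4:152325742-152334071 (+ strand), Rps27l on chr9:66946086-66949516 (+ strand) and Rps27 on chr3:90212522-90213651 (- strand), with 4 exons each.

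As a check of the labels, Uhrf1 had 7.24, 13.2 and 13.0 FPKM in the controls and 2.75 and 2.61 FPKM in the cKO, a log2 fold change of -1.97 ± 0.28 (SE; limma across all genes, Benjamini-Hochberg adjusted p = 0.00767). Fold changes here and below were fitted by limma on log2(FPKM + 0.1) and are cKO minus control. Low FPKM values fell in steps that put the depth at about 16000000, 11000000 and 10000000 fragments in MG16, MG17 and MG19, where 80.5% to 84.7% of the values fitted whole fragments. In MG15 and MG18 only 71.1% and 67.1% did, and their depth could not be settled in this way. Of the 10 cortical neuron and progenitor markers, all were above 1 FPKM, with sums of 2845 to 3214 FPKM in the controls and 2621 to 2799 FPKM in the cKO. In such bulk tissue, fewer cells of a type and less RNA per cell cannot be told apart. Of the 14697 genes that reached a mean of 0.1 FPKM, 2.88% were higher and 1.16% lower in the cKO by the study's call rule. This rule is an unadjusted p under 0.05 with a change over 2-fold. Only its thresholds were taken over, here and below, and they were applied to the limma p-values and fold changes. The study used p-values from Cufflinks, so the genes it called can differ. With an adjusted p under 0.05, 1.1% were higher and 0.163% lower, and with an unadjusted p under 0.05 alone, 6.37% and 5.17%. The cKO libraries lay above every control for 14.5% of the genes and below every control for 16.3%.

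In the controls the 10 genes ranged from nothing to among the most abundant mRNAs. Rpl39 led with a mean of 323 ± 90.5 FPKM (SD, n = 3), and Rpl22 followed with 239 ± 30.8 FPKM. Their ranges overlapped. Rps27l came next with 107 ± 27.8 FPKM, ahead of Rpl3 with 49.5 ± 15.3 and Rpl22l1 with 47.8 ± 6.75 FPKM, and the ranges of Rpl3 and Rpl22l1 overlapped. Rps27 had 6.65 ± 0.649, Rpl10 had 3.58 ± 0.783 and Rpl39l had 0.197 ± 0.249 FPKM. Each was clear of its neighbours above in listed FPKM. Multiply mapped reads had been removed, and some of these mRNAs share many read-length stretches with other genes. The share of stretches found in no other gene was 1.6% for Rps27, 8.4% for Rpl10, 20.6% for Rpl3 and 49.2% for Rpl22l1. The places of these genes are thus an order of listed FPKM and not of mRNA amount. Rpl10l and Rpl3l were listed at 0 in every library. The name tissue-restricted thus held in the control cortex for Rpl39l, Rpl10l and Rpl3l, while Rpl22l1 and Rps27l were expressed there at levels well above the median of 8.96 FPKM over the genes tested. The median control level of the 8 genes that passed the filter was 48.6 FPKM.

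**Figure D1:**
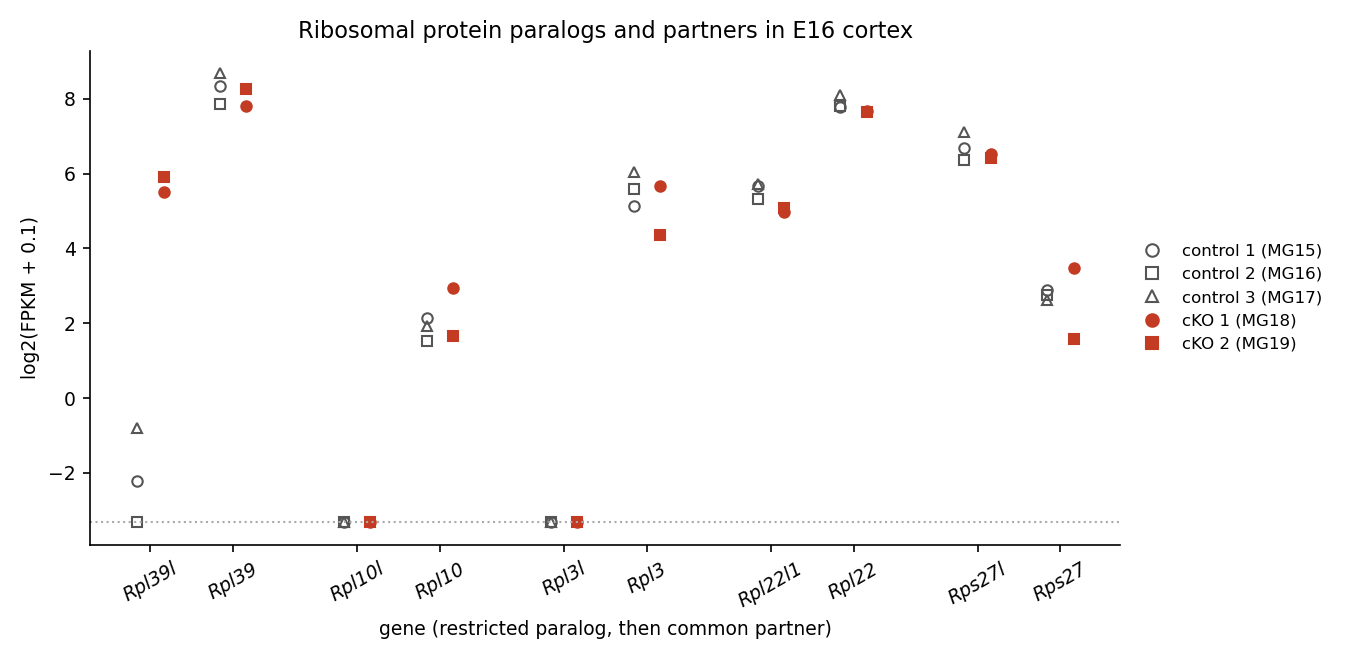
Level of each of the 10 genes as log2(FPKM + 0.1), with each restricted paralog beside its common partner. Open grey symbols are the 3 controls and filled red symbols the 2 cKO libraries. Rpl39l runs from near the floor in the controls to 45.0 and 59.6 FPKM in the cKO, while Rpl10l and Rpl3l stay at 0 in all 5 libraries.

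Of the genes followed here, Rpl39l had by far the largest difference between the genotypes. It had 0.113, 0 and 0.477 FPKM in the controls MG15, MG16 and MG17, against 45.0 FPKM in MG18 and 59.6 FPKM in MG19. Both cKO libraries were far above every control, and the cKO mean was 52.3 ± 10.3 FPKM (SD, n = 2). The log2 fold change was 7.81 ± 0.60 (SE) on the log2(FPKM + 0.1) scale, the third highest of the 14697 genes. Because the controls were close to 0, this size depended on the value added before taking logarithms, and it was 5.48 when 1 was added. In the controls only 6.23% of the genes tested had a lower mean than Rpl39l, against 90.4% in the cKO. These values come from the contrast that chose the gene.

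Its partner Rpl39 did not separate the genotypes. It had 327, 231 and 412 FPKM in the controls, 226 FPKM in MG18 and 305 FPKM in MG19, with a log2 fold change of -0.26 ± 0.26 (SE). One cKO library lay within the range of the controls and the other just below it. The new transcript was thus a minority of the pair, with Rpl39l at 19.9% of the Rpl39 level in MG18 and 19.5% in MG19. Taken as a share of the summed FPKM of both genes, Rpl39l made up 0.0347%, 0% and 0.116% in the controls, 16.6% in MG18 and 16.3% in MG19. The share differed by less between the cKO libraries than the level of either gene did. The summed level of the pair was 323 ± 90.7 FPKM over the 3 controls (SD) and 318 ± 65.9 FPKM over the 2 cKO libraries (SD), a difference smaller than either spread.

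**Figure D2:**
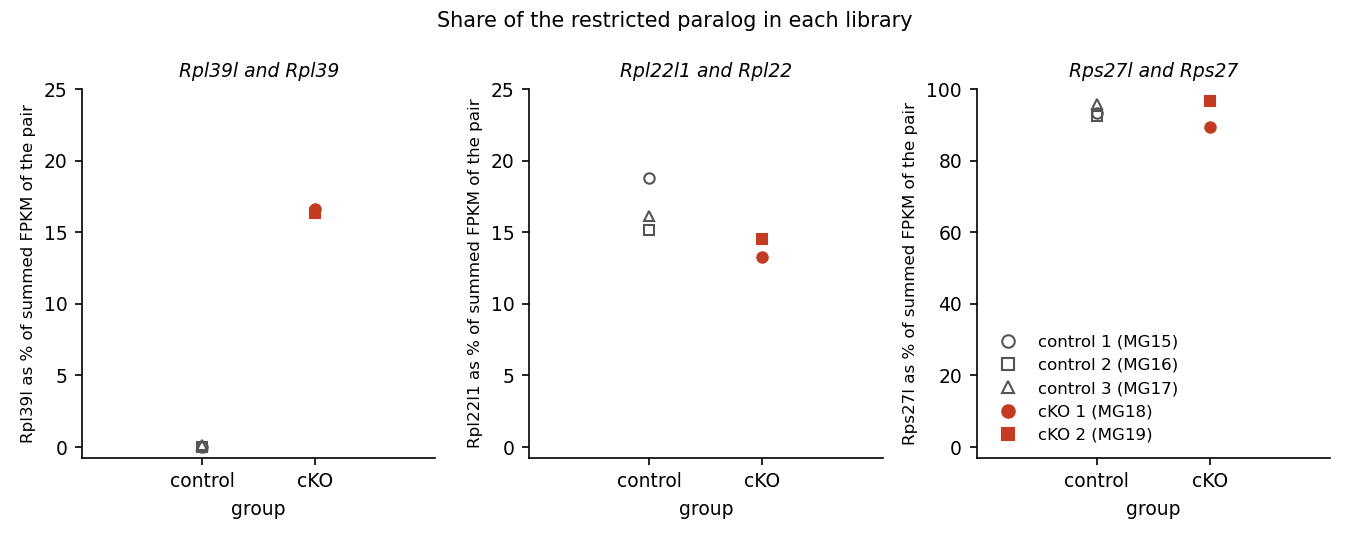
Share of the paralog in the summed FPKM of each pair, in percent, for Rpl39l, Rpl22l1 and Rps27l. Each symbol is 1 library, with controls in open grey and cKO in filled red. Rpl39l stands near 0 in the controls and at 16.6% and 16.3% in the cKO. Rps27l makes up 89.4% to 96.7% of the summed FPKM of its pair in all 5 libraries, which does not show which gene made more mRNA.

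The stretch before the Rpl39l start site is printed because the study reported reduced DNA methylation in the cKO cortex. CpG-rich promoters of germline genes can be methylated at their CpG dinucleotides in somatic tissue. The printed stretch covers the 219 bases before the first annotated start, chr16:10169978-10170196, on the + strand, with each CG in capitals (RefSeq, GRCm38.p6).
Rpl39l promoter: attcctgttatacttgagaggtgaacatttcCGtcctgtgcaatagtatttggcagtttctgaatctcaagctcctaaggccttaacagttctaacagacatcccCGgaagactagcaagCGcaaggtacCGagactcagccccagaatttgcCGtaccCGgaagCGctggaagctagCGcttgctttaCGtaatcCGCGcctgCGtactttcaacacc
The letters CG occurred 12 times in it, read on the + strand, which holds for both strands since CG is its own reverse complement. Over the full 300-base window around the RefSeq start, Rpl39l had 17 CG, more than 68.6% of the 32851 mouse promoters of that length, whose median was 7. The promoters of Rpl39 and Rpl10 also had 17 CG each. Rpl10l had 13, more than 62.1% of promoters, and Rpl3l had 2 and 3 at its 2 starts. The other entries ran from 8 and 15 at the 2 starts of Rpl22 through 22 for Rps27 and 24 and 29 at the 2 starts of Rps27l to 30 for Rpl22l1. Matches were found for 9 of the 10 genes, and Rpl3 is named only. Methylation of these promoters was not analysed here.

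The other paralog of an X-linked gene, Rpl10l, was listed at 0 in all 5 libraries, as was Rpl3l, the version of striated muscle. Neither passed the filter on low values, and no fold change was fitted for them. The defining markers of their usual tissues were low or missing. Of 10 germ cell markers, Dppa3, Prm1, Prm2, Tnp1 and Acrv1 were at 0 in every library, and the sum of the 10 was 2.04 to 3.20 FPKM in the controls and 3.13 to 5.76 FPKM in the cKO. Of 13 striated muscle markers, Myl1 was at 0 throughout, 1 was above 1 FPKM in any library, and the sum was 0.903 to 1.43 FPKM in the controls and 1.93 to 2.70 FPKM in the cKO. The groups did not overlap in the muscle sum, and the genes that raised it differed in part between the cKO libraries. Myh3 was above every control in both, with 0.105 and 0.157 FPKM against 0.0557, 0.0367 and 0.0638 FPKM. Acta1 was the marker above 1 FPKM, in MG18. It had 0.593 FPKM in MG19, and 0.596, 0.411 and 0.506 FPKM in the controls. Mylpf and Tnnc2 were at 0 in MG18 and had 0.734 and 0.543 FPKM in MG19. Myh7 had 0.714 FPKM in MG18 and 0.153 FPKM in MG19. These genes were named after their values were seen, and values this low rest on few fragments. In the germ cell sum the groups overlapped. Sycp3, a protein of meiotic chromosomes, had 0.0355, 0.0555 and 0.141 FPKM in the controls against 1.13 and 0.519 FPKM in the cKO. Pou5f1 lay the other way, with 0.0656, 0.144 and 0.110 FPKM in the controls and 0 in both cKO libraries. Both were named after their values were seen. Ddx4, Dazl and Nanos3 had overlapping groups, and Nanos3 had the highest values of the germ cell list. The part of such cells in the Rpl39l level was not tested.

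Rpl10, which completes the large subunit, had 4.31, 2.76 and 3.68 FPKM in the controls and 7.58 and 3.03 FPKM in the cKO. MG18 was above every control and MG19 among them, and the log2 fold change of 0.44 ± 0.37 (SE) became -0.21 without MG18 and 1.08 without MG19. Rpl3, near the catalytic centre, had 35.0, 48.0 and 65.5 FPKM in the controls and 51.2 and 20.3 FPKM in the cKO. Here MG18 lay among the controls and MG19 below them, and the log2 fold change of -0.57 ± 0.37 (SE) became -1.23 without MG18 and 0.09 without MG19. The direction of both genes was thus set by which cKO library was used.

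Rpl22l1 and Rpl22 were both lower in the 2 cKO libraries than in any control. Rpl22l1 had 50.5, 40.1 and 52.8 FPKM in the controls against 31.2 and 34.0 FPKM in the cKO, a log2 fold change of -0.54 ± 0.17 (SE). Rpl22 had 218, 225 and 275 FPKM in the controls against 204 and 200 FPKM in the cKO, a log2 fold change of -0.24 ± 0.18 (SE). Both kept this sign under all 11 alternative settings, with a range of -0.66 to -0.45 for Rpl22l1 and -0.30 to -0.10 for Rpl22. The paralog made up 18.8%, 15.2% and 16.1% of the summed FPKM of the pair in the controls against 13.3% and 14.5% in the cKO. Of the 100-base stretches of the Rpl22l1 mRNA, 49.2% were found in no other gene, against 100% for Rpl22. With multiply mapped reads removed, this share need not equal the share of mRNA. The 2 groups did not overlap in the share of summed FPKM, and their means were 16.7% ± 1.87 (SD, n = 3) and 13.9% ± 0.907 (SD, n = 2).

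Rps27l, the p53-responsive version of the small subunit protein, had the higher listed FPKM of its pair in every library. It had 103, 82.1 and 137 FPKM in the controls and 92.8 and 85.9 FPKM in the cKO, all within the control range, with a log2 fold change of -0.24 ± 0.22 (SE). Rps27 had 7.30, 6.63 and 6.01 FPKM in the controls and 11.1 and 2.91 FPKM in the cKO, so that MG18 lay above and MG19 below all controls. Its log2 fold change of -0.21 ± 0.44 (SE) became 0.73 without MG19 and -1.16 without MG18. Rps27l made up 93.4%, 92.5% and 95.8% of the pair in the controls against 89.4% and 96.7% in the cKO, with overlapping groups.

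Of the 10 genes, 1 (Rpl39l) was higher and none lower by the study's call rule, and the count was the same with an adjusted p under 0.05. Over all genes these rules called 2.88% and 1.1% higher. The groups did not overlap upward for 1 gene and downward for 2, against 14.5% and 16.3% of all genes tested. The rule used this contrast, and nothing is read from these counts. The median log2 fold change of the 8 genes that passed the filter was -0.24, beside -0.02 over all genes.

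The low FPKM of Rpl10 and Rps27 went together with sequence that these genes share with processed copies elsewhere. The authors removed reads that mapped to more than 1 place. Of all 100-base windows of the principal mRNA, 8.4% for Rpl10, 1.6% for Rps27 and 20.6% for Rpl3 were found in no transcript of another gene. The shared windows matched 10 other genes for Rpl10, of which 9 were annotated as pseudogenes, and 7 for Rpl3, all of them pseudogenes. For Rpl22l1 the share was 49.2% and for Rpl39 it was 98.2%. For Rpl39l, Rpl10l, Rpl3l, Rpl22 and Rps27l every window was found in no other gene. In the 3 genes with the fewest such windows among those expressed, the cKO libraries differed by 2.50 times for Rpl10, 2.52 times for Rpl3 and 3.79 times for Rps27. The share of Rps27l in its pair rests on one of these genes, Rps27. The part of the read filter in these levels was not tested.

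The same measure over the 75 other cytosolic ribosomal protein genes gave a median control level of 3.73 FPKM for the 13 genes with under 25% of such windows. It was 44.6 FPKM for the 39 genes between 25% and 75% and 415 FPKM for the 23 genes over 75%. Levels within each class spanned wide ranges, such as 0.394 to 89.1 FPKM in the first. The difference between the cKO libraries did not follow the same order, with a median size on the log2 scale of 0.292 in the first class, 0.388 in the second and 0.202 in the last. This is a description across genes, which share the same libraries.

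**Figure D3:**
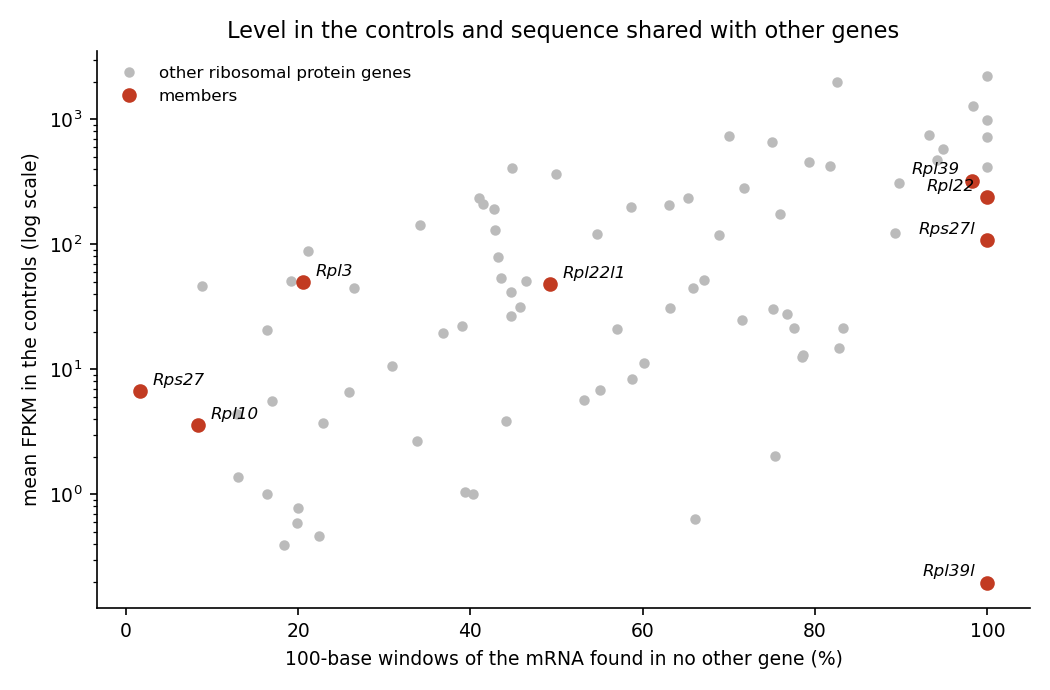
Mean control FPKM (log axis) against the percentage of 100-base windows of the mRNA found in no other gene, for the members with a level above 0 (red) and the 75 other ribosomal protein genes (grey). Rps27 (1.6%) and Rpl10 (8.4%) lie at the lower left, and Rpl39, Rpl22 and Rps27l at the upper right. Rpl39l lies at the bottom right, with every window its own and 0.197 FPKM.

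Among all 83 cytosolic ribosomal protein genes tested, no other gene came near the change of Rpl39l, and the next highest log2 fold change was 1.03, for Rpl24. Rpl24 had means of 0.585 FPKM in the controls and 0.875 FPKM in the cKO, and 19.9% of its windows were found in no other gene. Of the 44 other proteins of the large subunit, none was called higher and 3 lower by the study's rule, against 2.88% and 1.16% of all genes, and 1 was lower with an adjusted p under 0.05. That gene was Rpl23a, whose protein sits at the tunnel exit, with 1.01, 0.702 and 0.604 FPKM in the controls and a listed 0 in both cKO libraries (limma, adjusted p = 0.00664). It was among the 13 other ribosomal protein genes with under 25% of windows of their own, and the adjusted p rose to 0.0559 without MG15, 0.0867 without MG18 and 0.0912 without MG19. The other genes were Rpl9, with 1.46, 1.21 and 1.45 against 0 and 0.843 FPKM, and Rpl29, with 274, 334 and 480 against 205 and 148 FPKM. Their adjusted p-values by limma were 0.298 and 0.150, and 13.0% and 49.9% of their windows were found in no other gene. The median log2 fold change of the large subunit was -0.10, with 34 of 44 genes below 0, and it was 0.00 after quantile normalization.

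Of the 31 other small subunit proteins, none was called in either direction by either rule, and 1, which was Rpsa, was lower with an unadjusted p under 0.05, against 5.17% of all genes. Named after its values were seen, it had 81.5, 113 and 162 FPKM in the controls against 57.4 and 65.6 FPKM in the cKO (limma, adjusted p = 0.221). Among the most abundant was Rps21, with 857, 802 and 1298 FPKM in the controls against 984 and 919 FPKM in the cKO (limma, adjusted p = 0.985). Its groups overlapped. The median log2 fold change was 0.00, with 16 genes above 0 and 15 below, and it was 0.20 after quantile normalization.

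**Figure D4:**
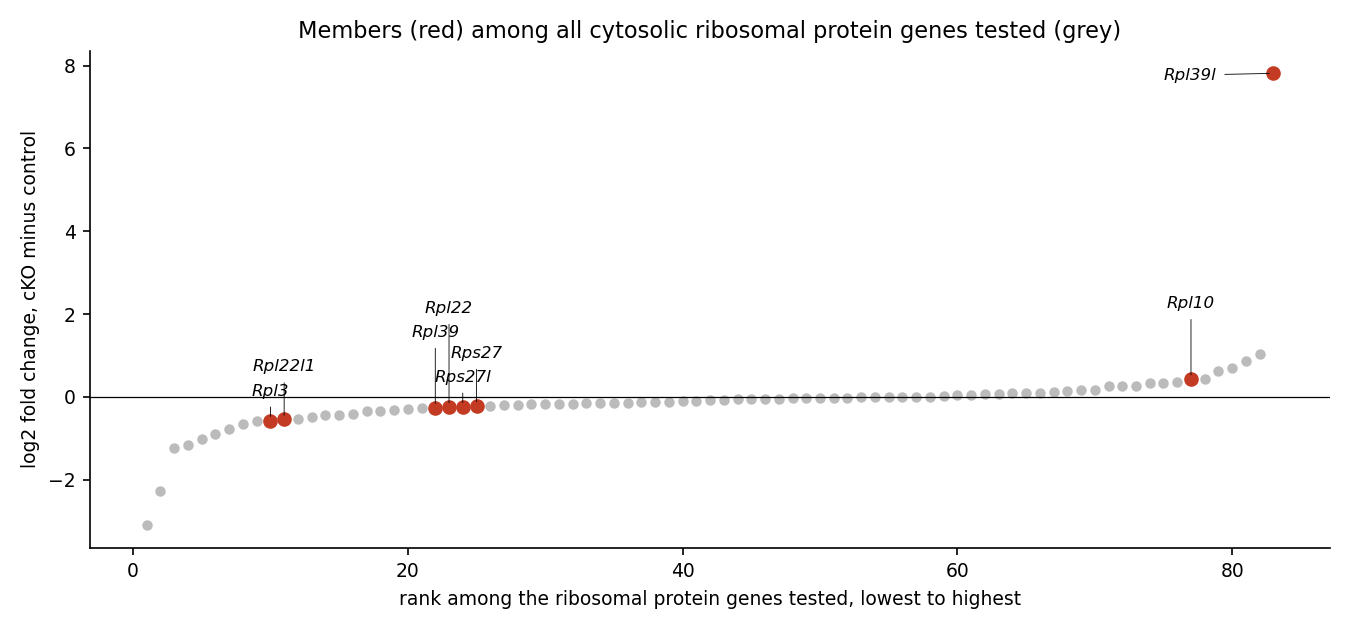
Log2 fold change (cKO minus control) of the 83 cytosolic ribosomal protein genes tested, in rank order, with the 8 members that passed the filter in red and the 75 others in grey. Thin lines only join names to points, and no errors are drawn. Rpl39l stands at 7.81, and every other gene lies at 1.03 or below.

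The 54 ribosome assembly genes encode factors that process ribosomal RNA and build the subunits. None was called in either direction by either rule. By an unadjusted p under 0.05 none was higher and 4 were lower, which were Nop58, Pes1, Eif6 and Nop56, with log2 fold changes of -0.48, -0.48, -0.46 and -0.40. Over all genes 6.37% were higher and 5.17% lower at this threshold, so 4 of 54 is close to the background. These 4 were named after their values were seen. Nop58 and Nop56 are core proteins of the particles that methylate ribosomal RNA, and Pes1 and Eif6 act on the large subunit. Over the list, 45 of 54 genes lay below 0 with a median of -0.20, against -0.02 over all genes. For 24 genes both cKO libraries lay below every control and for 1 above, beside 16.3% and 14.5% of all genes tested. The 2 most abundant, Nop10 and Rrp1, had log2 fold changes of -0.46 and -0.23 and overlapping groups (limma, adjusted p = 0.496 and 0.675).

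Translation factors also come in families with restricted versions, and 20 of the 23 listed reached the filter. By the study's rule none was called higher and 1 lower, and none passed with an adjusted p under 0.05. The lower gene was Pabpc1l, the oocyte form of the poly(A)-binding protein, with 0.415, 0.286 and 0.246 FPKM in the controls and 0 and 0.0809 FPKM in the cKO (limma, adjusted p = 0.243). By an unadjusted p under 0.05, 2 genes were higher and 1 was lower, beside 6.37% and 5.17% of all genes. The higher genes, named after their values were seen, were Pabpc1, the common poly(A)-binding protein, and Gspt2, a release factor. Pabpc1 had 15.9, 16.5 and 19.0 FPKM in the controls and 30.8 and 28.4 FPKM in the cKO (limma, adjusted p = 0.0555). Gspt2 had 3.11, 3.11 and 3.29 against 5.01 and 4.96 FPKM (limma, adjusted p = 0.279). The 2 most abundant genes of the list were the elongation factor Eef1a1, with a log2 fold change of -0.25, and the helicase Eif4a2, with -0.26 (limma, adjusted p = 0.776 and 0.661).

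The genes whose values were nearest to those of Rpl39l over the 5 libraries were found by the root mean square difference of log2(FPKM + 0.1). Nearest was Rhox5, an X-linked homeobox gene of reproductive tissues, at a distance of 1.03, with 0.0707, 0 and 0.115 FPKM in the controls and 28.4 and 18.9 FPKM in the cKO. Xlr3c followed at 1.19, with 0.303, 0 and 0.0569 against 19.3 and 28.1 FPKM, and 4930550L24Rik at 1.33, with 0.0322, 0 and 0.0620 against 16.6 and 18.2 FPKM. These 3 genes lie on the X chromosome. The next were AI662270, a long noncoding RNA on chromosome 11, at 1.71, Sectm1a on chromosome 11 at 1.80 and the channel gene Trpc6 on chromosome 9 at 1.81. In the cKO libraries these 3 had 10.6 and 13.9, 13.7 and 11.4, and 11.4 and 14.5 FPKM. All 6 were lower than Rpl39l in both cKO libraries, and Sectm1a was listed at 0 in every control. The measure finds genes of like level, and says nothing of shared control.

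**Figure D5:**
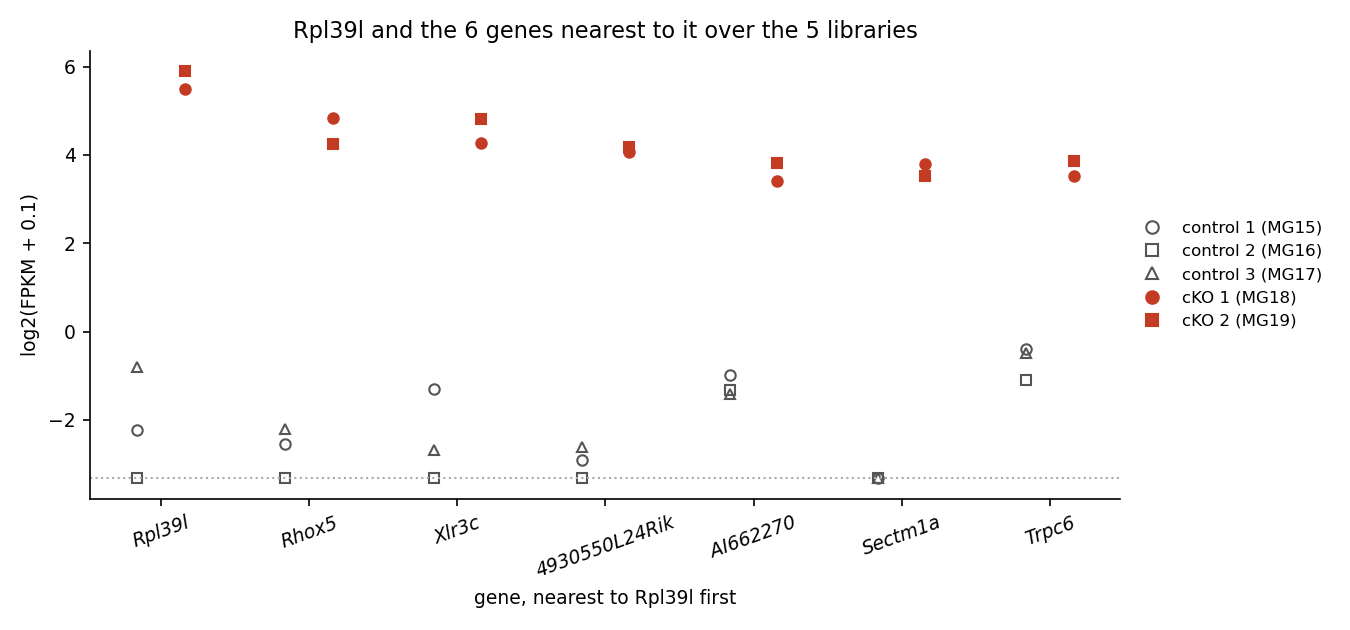
Levels of Rpl39l and of the 6 genes nearest to it, as log2(FPKM + 0.1), ordered by their distance from Rpl39l over the 5 libraries. Open grey symbols are the controls and filled red symbols the cKO libraries. In each gene both cKO libraries lie above all 3 controls, and Rpl39l is the highest in the cKO.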

How the data were processed

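Per the labels and the study's methods, RNA from E16 full cortex was depleted of ribosomal RNA and made into stranded libraries, and 100-base paired reads were mapped to mm10 with TopHat2. The authors removed unpaired, multiply mapped, duplicate and low-quality alignments and deposited FPKM per gene from Cuffdiff and cummeRbund. Tool versions were not given in the sources used here. Counts were not used here, so depth was estimated from the steps between low FPKM values in 1639 long genes with a single transcript.

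Genes whose mean FPKM reached 0.1 were kept. Of 1226 small RNA names left out, 58 reached that mean. This left 14697 genes for limma 3.58.1 (R 4.3.3) on log2(FPKM + 0.1), with the variance trend, 3 controls against 2 cKO and no covariates. Adjusted p-values are Benjamini-Hochberg values over all genes tested. The fit was tested on simulated data. Alternatives were a pseudocount of 1, a minimum mean of 1 FPKM, no minimum, quantile normalization, median centring, sex as a covariate, and leaving out each library. Libraries with Ddx3y above 1 FPKM were taken as male for that covariate, which included MG18 although it also had Xist transcripts.

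The 10 members and the gene lists were chosen with earlier results of these data known. Named genes were the members, Uhrf1, the list genes past an unadjusted p of 0.05 and 2-fold (or the 2 most abundant where fewer than 2 passed), and the 6 genes nearest to Rpl39l. One gene this rule names is not reported here. Coding sequences were aligned with Biopython 1.88, and windows of 100 bases were matched exactly, on both strands, to GENCODE M21 transcripts. Promoters came from RefSeq (GRCm38.p6).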

Additional observations from a re-analysis of the deposited data

How the results depend on the processing

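Over all genes, 161 were higher and 24 lower with an adjusted p under 0.05. These counts were 100 and 14 with a minimum mean of 1 FPKM, 34 to 134 and 2 to 20 when 1 library was left out, and lowest without a cKO library (34 and 2 without MG18, 45 and 4 without MG19). Without MG15 and without MG16, 10 and 11 were lower. By the study's rule the split of higher and lower calls was 423 and 171, and 321 and 287 after quantile normalization.

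With a pseudocount of 1, the log2 fold change of Rpl39l was 5.48 and that of its ratio to Rpl39, otherwise 8.07, was 5.74. With 1 library left out they were 7.21 to 8.47 and 7.69 to 8.54. Rpl10 ran from -0.21 to 1.08, Rpl3 from -1.23 to 0.094, Rps27 from -1.16 to 0.73 and the ratio of Rps27l to Rps27 from -0.91 to 0.87 (0.24 without MG17, 0.87 without MG18). The cause was not tested. Rpl39, Rpl22l1, Rpl22 and Rps27l kept their sign in all 11 alternatives.

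By the study's rule, 1 large subunit gene was lower with a pseudocount of 1 and 1 with a minimum mean of 1 FPKM, and 1 was higher with sex as a covariate. When 1 library was left out, 0 to 1 were higher and 2 to 4 lower. For the small subunit, 1 gene was lower with the minimum of 1 FPKM, 1 after quantile normalization and 1 after median centring. Without 1 library, 0 to 1 were higher and 1 to 2 lower. Translation factors called lower were 0 with a pseudocount of 1, 0 with the minimum of 1 FPKM, and 0 to 2 without 1 library. No ribosome assembly gene was called in any of the 11.

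No paired analysis was possible because the labels give no replicate numbers. With 2 cKO libraries, changes of single genes near 2-fold are poorly resolved, FPKM without counts gives no counting interval, and a listed 0 is not proof of absence.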

Other observations

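Of the genes tested, 6 had names of ribosomal protein pseudogenes, of the form Rpl or Rps followed by -ps. This rule was chosen after the values were seen, so the values are given as a description. Rpl34-ps1 was listed at 0 in all 3 controls and had 11.2 and 9.90 FPKM in the cKO. Rpl14-ps1, at the other end of the scale, had 783, 765 and 933 FPKM in the controls, 832 FPKM in MG18 and 745 FPKM in MG19. Its groups overlapped. Rps15a-ps4, Rps15a-ps6 and Rps19-ps3 were also expressed in every library, and Rpl31-ps12 had at most 0.297 FPKM. Reads of such copies can be shared with their parent genes, and their values are uncertain for that reason.

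Transcripts of the Y chromosome were present in 3 libraries and absent or nearly so in 2, with 1 of the latter in each group (MG16 and MG19). MG18 had transcripts of both kinds, with 13.3 FPKM of the Y-linked Ddx3y and 3.84 FPKM of Xist, against 0.0252 and 0.0812 FPKM of Xist in MG15 and MG17 and 66.6 and 96.3 FPKM in MG16 and MG19. Rpl39l was near 0 in MG16 and high in MG19. Rpl10 had 3.68 to 7.58 FPKM in the libraries with Y transcripts and 2.76 to 3.03 FPKM in those without, and Rps27l had 92.8 to 137 against 82.1 to 85.9 FPKM. These splits were noticed after the values were seen and were not tested.

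Blood markers, 10 genes, summed to 589 to 924 FPKM in the controls and 454 to 516 FPKM in the cKO. Most of this sum was globin, and Hbb-bs alone had 451, 434 and 592 FPKM in the controls against 273 and 311 FPKM in the cKO. The microglial genes of the list, Cx3cr1 and Csf1r, lay the other way, with 1.53 to 2.22 against 3.26 to 3.94 FPKM and 2.67 to 4.10 against 4.97 to 5.47 FPKM. Their part in the members' values was not tested.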
